A study of Mus musculus with 7 samples.

Results

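Broad peaks are here the stretches of open chromatin at least 1200 bases long on chromosomes 1 to 19, in a table of peaks in mouse haematopoietic stem cells. They were chosen by width alone, taken as end minus start plus 1. No count was used in the rule, but width itself reflects signal strength, so the choice is not independent of signal. The rule kept 5048 of 96233 autosomal peaks, or 5.25% of them, out of 98723 peaks in all. They covered 7415 of the 49388 kb of autosomal peaks, or 15.01%. Their median width was 1403 bases (quartiles 1286 and 1583) and the widest spanned 3079 bases, while the other 91185 autosomal peaks had a median width of 372 bases. The limit of 1200 bases cuts through a continuum. The 927 peaks of 1150 to 1199 bases just outside it had a median of 34.8 counts scaled to library size (CPM), and the 752 peaks of 1200 to 1249 bases just inside it had 36.8 CPM.

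Accessibility was profiled by Omni-ATAC-seq, a variant of the assay in which a transposase cuts exposed DNA and leaves sequencing adapters at the cuts. The study asked how forced expression of Runx3, one of the RUNX transcription factors, affects the chromatin of aged stem cells. Both groups started from bone marrow of mice 24 months old, of strain C57BL/6 per the labels, enriched for cells carrying cKit. In the control group (4 libraries, numbered 1 to 4) these cells received a control lentivirus, and in the Runx3 group (3 libraries, numbered 1, 3 and 4) one expressing Runx3. In both groups the infected cells were transplanted into lethally irradiated mice, and 16 weeks later donor-derived, transduced cells were sorted as LSK cells that lacked Flt3 and CD48 and carried CD150, CD45.2 and hCD2. All cells analysed had therefore been through viral infection, transplantation and sorting, and no untransplanted group was compared. Nothing in the labels says that the libraries came from separate animals. The p-values therefore refer to the spread among these 7 libraries, part of which may be technical. The cell type was not checked against marker genes, because gene annotation was not used here.

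A peak is a run of sequence where transposase cuts pile up above their surroundings, and its width reflects how far the open DNA extends and how strong the signal is. Most regulatory elements, such as single enhancers, open over a short gap between nucleosomes. Wider open stretches are typically found at promoters of active genes, in particular those lying in CpG islands, and where several enhancers sit side by side. RUNX factors bind a short DNA motif together with their partner CBFB, and they act in blood stem cells both as activators and as repressors. Neither the genes at the broad peaks nor their DNA sequence was analysed here.

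The libraries held between 1738164 and 3758422 counts in peaks, of which 424880 to 925026 fell in broad peaks. Control 1 stood apart from the other libraries, also within broad peaks. Over the 5048 broad peaks the chi-square per degree of freedom was 2.27 to 2.99 for pairs of controls that included control 1, 1.23 to 1.31 for the other control pairs and 1.12 to 1.20 for Runx3 pairs, so no pair agreed within sampling noise. Control 1, control 2 and Runx3 1 (called set 1) also shared 57 peaks that differed at least 8-fold from the remaining 4 libraries (set 2). None of those 57 peaks was broad. The labels give no batch, and the sets were found from the data.

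Broad peaks held far more of the counts than their share of peaks or of bases. Since width reflects signal strength, this is not independent of the rule that chose them. They took 27.2%, 25.25%, 24.96% and 25.07% of autosomal counts in controls 1 to 4, and 24.9%, 26.0% and 24.9% in Runx3 libraries 1, 3 and 4. Control 1 was the highest of all and the only library above the range of the Runx3 group, while controls 2, 3 and 4 lay inside it. The group means were 25.6% ± 1.07 (SD, n = 4) and 25.3% ± 0.626 (SD, n = 3). Their difference of -0.343 percentage points was smaller than the spread within the control group (exact permutation of the group labels, two-sided, p = 0.629; 35 arrangements exist, so the smallest possible p is 0.0571 and no share could pass 0.05). Without control 1 the control mean was 25.1% ± 0.1501 (n = 3). Within set 1 the share was 26.2% in controls and 24.9% in Runx3 1, and within set 2 it was 25.01% in controls and 25.47% in Runx3, so the direction differed between the sets. In bulk libraries such as these, a stretch open in more cells and a stretch more open in each cell cannot be told apart.

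**Figure D1:**
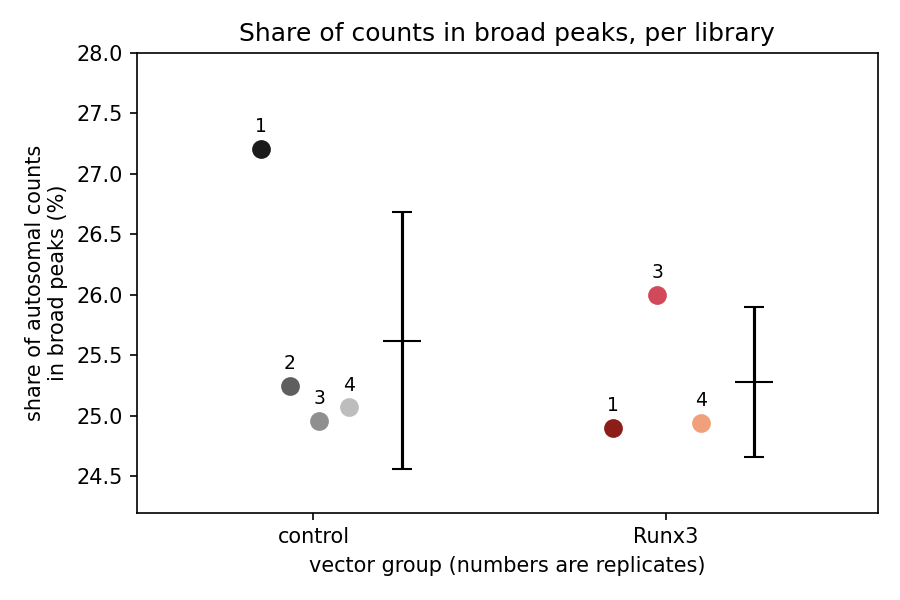
Share of autosomal counts falling in broad peaks (percent, vertical axis) in each of the 7 libraries, with each group's mean and SD. Control 1 lies at 27.2%, and the other 6 libraries lie between 24.9% and 26.0%.

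The share was split into 4 width classes to see where control 1 departed. The 2486 peaks of 1200 to 1399 bases held 10.7% ± 0.417 of counts in controls and 10.6% ± 0.198 with Runx3. The 1383 peaks of 1400 to 1599 bases held 7.12% ± 0.326 and 7.02% ± 0.205, and the 968 peaks of 1600 to 1999 bases held 5.99% ± 0.260 and 5.88% ± 0.163. The 211 peaks of 2000 bases or more held 1.76% ± 0.0676 and 1.74% ± 0.0662. In each class the difference was smaller than the SD of the controls (exact permutation p = 0.629 to 0.8, all 0.8 after Benjamini-Hochberg adjustment over 5 comparisons). In every class control 1 was the highest library, with 11.4%, 7.61%, 6.38% and 1.87% from the narrowest class to the widest. The counts it lacked were in peaks of 400 to 799 bases, where it had 27.5% against 29.9% to 30.3% in the other libraries of its group and 29.5% to 29.9% in the Runx3 group.

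**Figure D2:**
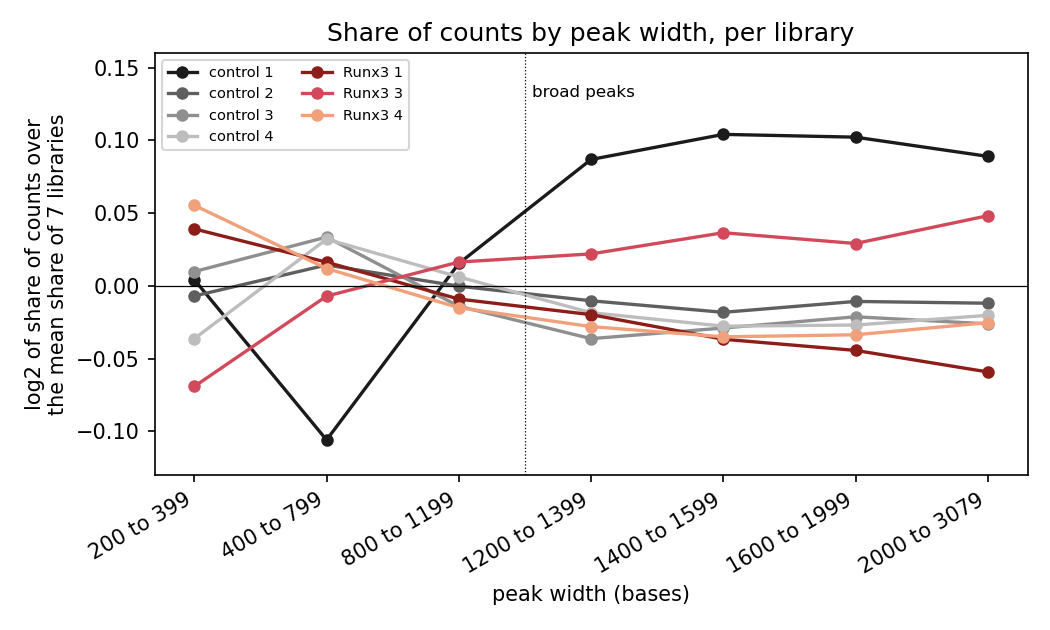
Log2 of each library's share of autosomal counts over the mean share of the 7 libraries (vertical axis), by peak width class (horizontal axis, bases), with 1 line per library. Control 1 lies above the other libraries in the classes of 1200 bases or more and below them at 400 to 799 bases.

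Broad peaks were also denser in reads per base than other peaks. The median broad peak had 48.5 CPM, or 33.6 CPM per kb of width, against 4.43 CPM and 11.2 CPM per kb for other autosomal peaks. Other tested autosomal peaks had 17.3 CPM per kb, and all peaks of 800 to 1199 bases had 23.8. Density did not jump at the limit, with 29.5 CPM per kb at 1150 to 1199 bases and 30.3 at 1200 to 1249. Levels of single broad peaks spread from 7.44 to 230.1 CPM, and the strongest other peak reached 414 CPM, so the highest signal of the table was not in a broad peak. Most members lay in the middle of their range, with 26 under 10 CPM, 4630 from 10 to 100 CPM and 392 above. Density rose with width, from a median of 32.4 CPM per kb at 1200 to 1399 bases to 33.8, 35.1 and 39.3 CPM per kb in the next 3 classes. Across the 5048 broad peaks Spearman's rho of width with CPM was 0.34, and across other autosomal peaks it was 0.82. Both are descriptions across peaks, which share libraries and are not replicates.

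Read density set control 1 apart in the same way. Reads per kb in broad peaks were 2.12, 1.91, 1.88 and 1.89 times those in other autosomal peaks in controls 1 to 4, and 1.88, 1.99 and 1.88 times in Runx3 libraries 1, 3 and 4. Control 1 was the highest library and Runx3 3 the next, and the groups overlapped. Control 1 was the highest of the 4 controls at 54.1% of broad peaks, where controls 2, 3 and 4 were each highest at no more than 15.49%. Among other tested peaks it was highest at 30.1%.

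The excess in control 1 went with signal level as well as with width. Tested peaks were ordered by mean CPM and cut into 10 bands of equal size. In the top band, where 3013 broad peaks or 59.7% of them lie, control 1 deviated from the mean of all libraries by a median log2 of 0.14 at broad peaks and 0.12 at the other peaks of the band. In the band below it the medians were 0.07 and 0.01, and in the next 0.04 and -0.05. Within the top band, broad peaks held 1.44, 1.39, 1.43 and 1.39 reads for each read in other peaks in controls 1 to 4, and 1.39, 1.43 and 1.40 in the Runx3 libraries, so control 1 did not stand apart on that ratio. The part of signal level and of width in the deviation of control 1 was not tested.

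The strongest broad peaks show this library difference one by one. The peak with the highest level, on chromosome 16 at 42874976 to 42876617, had 276, 235, 200.5 and 215 CPM in controls 1 to 4 and 226.5, 215 and 242 CPM in Runx3 libraries 1, 3 and 4. The second, on chromosome 16 at 38088276 to 38090103, had 283 CPM in control 1 and 187 to 220 CPM in the other 6 libraries. In the 5 strongest peaks control 1 was the highest of all libraries in 5 of 5. The remaining 3 lie on chromosome 11 at 97048197 to 97050095 (205 CPM on average), on chromosome 12 at 56255585 to 56256800 (197 CPM, and with 162 CPM per kb the densest broad peak) and on chromosome 7 at 26052291 to 26053617 (190.5 CPM). None passed the test between the groups, with log2 fold changes of -0.08 to 0.00 and edgeR adjusted p of 0.923 or more.

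None of the 5 widest broad peaks passed the test either. The widest of all, 3079 bases on chromosome 3 at 58218225 to 58221303, had 118, 111, 101 and 109.8 CPM in controls and 106, 122 and 113.5 CPM with Runx3, and the groups overlapped. The next 4 in width lie on chromosome 5 at 43623598 to 43626656, chromosome 18 at 39648564 to 39651396, chromosome 1 at 167930961 to 167933738 and chromosome 10 at 12586766 to 12589439. Their control means were 136.3, 135.4, 129.9 and 98.8 CPM, and their Runx3 means 137, 139.6, 118.5 and 101 CPM. Log2 fold changes of the 5 widest ran from -0.12 to 0.06, with edgeR adjusted p of 0.875 or more.

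Broad peaks varied less between libraries than other peaks. The within-group SD of log2 CPM had a median of 0.16 at broad peaks (quartiles 0.12 and 0.22) and 0.30 at the other tested autosomal peaks. Much of this difference went with signal level. In the top band of mean CPM the medians were 0.15 and 0.16, in the next 0.18 and 0.19, and in the third 0.21 and 0.23. In the band from 9.49 to 12.4 CPM the order turned, with 0.31 at 63 broad peaks and 0.29 at the others. The spread of control 1 was the largest here too: its median absolute deviation from the mean of its group was 0.16 at broad peaks. The other 6 libraries had 0.08 to 0.10, each against the mean of its own group of 4 or 3.

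**Figure D3:**
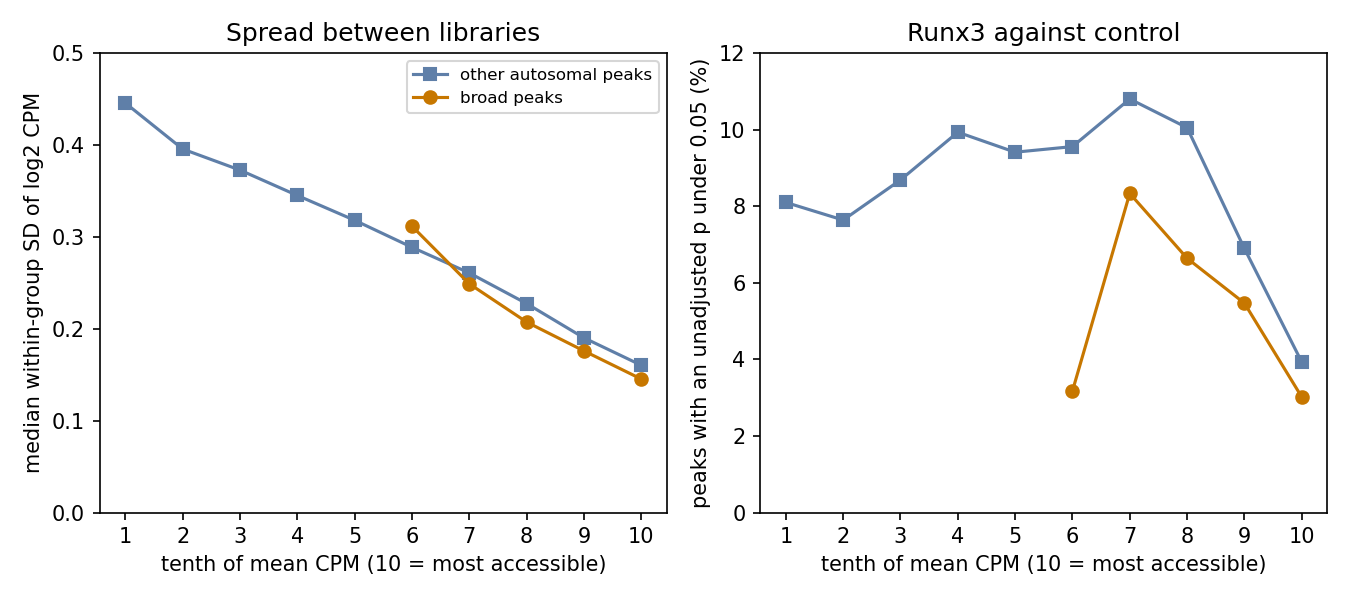
Broad and other tested autosomal peaks in 10 bands of mean CPM (horizontal axis, band 10 the highest): median within-group SD of log2 CPM (left) and percent of peaks with an unadjusted p under 0.05 (right), drawn for broad peaks in bands 6 to 10 only. In the top 4 bands broad peaks have the smaller median spread, by 0.01 to 0.02 log2 units.

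Few broad peaks stood out in a single library. At 41 broad peaks (0.812%) 1 library stood at least 1.5-fold above every other, and in 38 of them it was control 1. Among other tested peaks of the top 3 bands this was so at 152 of 12144 (1.252%), of which 114 were in control 1. A single library stood at least 1.5-fold below every other at 46 of 5048 broad peaks, 15 of them in control 1 and 15 in Runx3 1. Among the other peaks of the top 3 bands this was so at 305 of 12144, of which 190 were in control 1. These comparison peaks lie lower in signal, with 2618 of the 12144 in the top band, against 3013 of the 5048 broad peaks. At a 2-fold margin 2 broad peaks with a single high library remained, and 6 with a single low one. Of the 2 with a high library, the more variable lies on chromosome 1 at 181093031 to 181094544. It had 123, 31.6, 44.8 and 29.0 CPM in controls and 33.7, 27.4 and 21.3 CPM with Runx3. Control 1 was at least 2-fold above every other library there, and the within-group SD of 0.76 log2 units was the largest of any broad peak. Its log2 fold change of -0.998 ± 0.69 (SE) had an edgeR adjusted p of 0.805.

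The other 4 of the 5 most variable broad peaks were weak or split by library set. On chromosome 18 at 73850975 to 73852604 there were 11.4, 11.7, 35.2 and 19.8 CPM in controls and 28.1, 15.6 and 14.1 CPM with Runx3. Runx3 1 lay above both controls of set 1 and the Runx3 libraries of set 2 lay below both of theirs, with log2 fold changes of 1.27 and -0.89. The difference between the sets did not pass (edgeR interaction term, adjusted p = 0.536). The remaining 3, on chromosome 12 at 100335135 to 100336353, chromosome 4 at 84850940 to 84852157 and chromosome 1 at 43834424 to 43835809, averaged 13.04, 7.77 and 8.51 CPM.

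The comparison of Runx3 with control asked whether broad open stretches differed in accessibility. Of the 5048 broad peaks, all tested, 1 was higher and 1 was lower with Runx3 (edgeR quasi-likelihood test, Benjamini-Hochberg adjusted p under 0.05 over all 57504 tested peaks). That is 0.0198% of broad peaks in each direction, beside 0.0330% of all tested peaks higher and 0.0400% lower. At an unadjusted p under 0.05, 71 broad peaks were higher (1.41%) and 145 lower (2.87%), both below the background of 3.91% and 4.40%. That background includes many weaker peaks. In the top band of CPM, 25 of 3013 broad peaks were higher and 66 lower, against 52 and 51 of 2618 other peaks. There the share lower was not below that of the others. In the next band 19 of 1207 broad peaks were higher and 47 lower, against 116 and 189 of 4423. The Runx3 libraries lay all above the controls at 123 broad peaks (2.44%, background 4.36%) and all below at 215 (4.26%, background 4.58%).

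Differences at broad peaks were small. The median log2 fold change was -0.02 (quartiles -0.11 and 0.07) beside -0.01 at other tested autosomal peaks, and the median absolute change was 0.09 beside 0.20. Only 41 broad peaks (0.812%) had an absolute log2 fold change above 0.5, against 14.3% of the others. At matched level the changes were closer in size. The median absolute change was 0.07 at broad peaks and 0.08 at others in the top band of CPM. In the next it was 0.11 at both, and in the third 0.13 and 0.15. From 12.4 to 17 CPM it was 0.18 at both, and from 9.49 to 12.4 CPM 0.16 at 63 broad peaks and 0.20 at others. Below that lay 19 and 3 broad peaks, with larger medians than the others of their bands. The median SE was 0.13 at broad peaks and 0.28 at others, so the broad peaks were measured more precisely. On counts simulated for the 57504 tested peaks, in which all changed peaks were broad ones, the test found 47 of 50 changed 2-fold, 21 of 50 changed 1.5-fold and 1 of 50 at the single smaller size tried. The simulated spread depended on signal level alone. The departure of control 1 and the library sets were not simulated, so recovery in the real libraries may differ.

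More broad peaks had a negative than a positive fold change, 2858 against 2190 (56.6% negative, beside 50.8% of others). This lean changed with the libraries used. Without control 1 the median was 0.02. In that fit 259 broad peaks were higher and 204 lower at an unadjusted p under 0.05 (edgeR). These are 5.13% and 4.04%, beside a background of 4.96% and 5.85% in the same fit. The adjusted test then called 4 higher (0.0792%) and 5 lower (0.0990%), both below the background of 0.127% and 0.339%. Without Runx3 1 or Runx3 4 the median was -0.01 at broad peaks and also -0.01 at other tested autosomal peaks. Without Runx3 3 the medians were -0.05 and 0.001. Without control 2, 3 or 4 broad peaks had -0.03 and the others -0.005 to -0.003. The median of broad peaks minus that of other tested autosomal peaks was -0.015, but 0.01 with loess scaling and 0.02 without control 1, so its sign is not settled by these libraries.

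Within set 1 the median log2 fold change of broad peaks was -0.10, and within set 2 it was 0.03, while other peaks had -0.01 in both. The interaction of library set with vector had no broad peak past an adjusted p of 0.05 (edgeR). At an unadjusted p under 0.05 it held for 251 broad peaks with the larger fold change in set 2 and for 26 with the smaller, together 5.49% of broad peaks beside a background of 4.71%. By direction these are 4.97% and 0.515% of broad peaks, beside 2.62% and 2.09% of all tested peaks. Without control 1 the counts were 186 and 58 (3.68% and 1.15%, beside 2.42% and 2.32%), and none passed the adjusted threshold.

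The broad peak that was higher with Runx3 lies on chromosome 13 at 12198172 to 12199401 and is 1230 bases wide. It had 5.68, 8.57, 7.28 and 11.2 CPM in controls 1 to 4 and 21.8, 18.1 and 16.8 CPM in Runx3 libraries 1, 3 and 4. All Runx3 libraries lay above all controls. Means were 8.19 ± 2.34 (SD, n = 4) and 18.9 ± 2.61 (SD, n = 3). The level was 2.22-fold higher, or 1.15 ± 0.23 (SE) on the log2 scale, with an edgeR adjusted p of 0.0311. The difference had the same sign within both sets, with log2 fold changes of 1.57 in set 1 and 0.91 in set 2. This peak is weak for its width, at 10.4 CPM per kb, and isolated: no other peak lies within 50 kb, and the nearest is 71644 bases away.

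The broad peak that was lower lies on chromosome 19 at 27291248 to 27292868 and is 1621 bases wide. It had 34.1, 35.1, 33.8 and 31.1 CPM in controls and 19.3, 20.7 and 18.2 CPM with Runx3. The groups were far apart for their spread, with means of 33.5 ± 1.71 (SD, n = 4) and 19.4 ± 1.253 (SD, n = 3). The log2 fold change was -0.78 ± 0.16 (SE), a 1.72-fold lower level, with an edgeR adjusted p of 0.0403, and it was -0.84 in set 1 and -0.74 in set 2. A peak of 742 bases begins or ends 140 bases away. Its log2 fold change was -0.10, with 13.3 CPM in controls and 12.5 CPM with Runx3.

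Both calls sat near the threshold. Each kept its direction in all 7 fits that left out 1 library, with log2 fold changes of 1.04 to 1.36 and -0.84 to -0.73. Each stayed past the threshold only without control 1 or control 4 and lost its call without control 2, control 3 or any of the Runx3 libraries, which left adjusted p of up to 0.208 and 0.4345. DESeq2 gave adjusted p of 0.339 and 0.529 and limma-voom 0.121 and 0.122. With the replicate number as a block the higher call held (edgeR adjusted p = 0.0248) and the lower one did not (0.0543).

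The next broad peaks by p, listed only where the groups did not overlap and with at most 1 per 100 kb, had adjusted p above the threshold. On chromosome 2 at 93816302 to 93817563 there were 41.3, 36.6, 42.5 and 48.9 CPM in controls and 63.0, 62.0 and 64.5 CPM with Runx3. This gave a log2 fold change of 0.57 ± 0.13 (SE) with an edgeR adjusted p of 0.0612, and the peak passed the threshold without control 1, without control 4 and with 2 of the other scalings. A lower example lies on chromosome 4 at 11314335 to 11315605. Its 14.97, 19.5, 17.2 and 16.96 CPM in controls stood against 6.86, 9.70 and 9.99 CPM with Runx3, a log2 fold change of -0.93 ± 0.23 (SE) with an edgeR adjusted p of 0.118.

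Among the 10 on the higher side of that list, the called peak included, 3 lie within 2.5 Mb on chromosome 13. Besides the called one, they are at 13529631 to 13531025 and at 14614200 to 14615512. The first had 7.23, 8.96, 10.48 and 12.1 CPM in controls and 18.1, 19.4 and 16.8 CPM with Runx3, and a log2 fold change of 0.86 ± 0.22 (SE). The second had 4.13, 6.23, 6.40 and 5.46 CPM in controls and 8.73, 10.96 and 11.4 CPM with Runx3, and a log2 fold change of 0.88 ± 0.28 (SE). Neither passed the threshold (edgeR adjusted p = 0.136 and 0.272), and all 3 are low in signal for broad peaks, at 5.80 to 10.4 CPM per kb.

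The remaining 6 on the higher side are on chromosome 6 at 31467343 to 31469418, chromosome 8 at 87509218 to 87510465, chromosome 9 at 45714037 to 45715467, chromosome 18 at 24811178 to 24812951, chromosome 12 at 4038100 to 4039305 and chromosome 1 at 164406858 to 164408525. Their log2 fold changes ran from 0.40 to 0.53 and their edgeR adjusted p from 0.239 to 0.2997. On the lower side of the list 8 remain. They are on chromosome 1 at 173031916 to 173033588 and 165924388 to 165925799, chromosome 2 at 59856844 to 59858250 and 35686773 to 35688132, chromosome 3 at 88410727 to 88412010, chromosome 5 at 35250550 to 35251770, and chromosome 10 at 9394302 to 9396115 and 95139812 to 95141163. Their log2 fold changes ran from -0.75 to -0.52 and their adjusted p from 0.136 to 0.268. Of the 20 named by p, 8 passed the threshold when control 1 was left out.

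**Figure D4:**
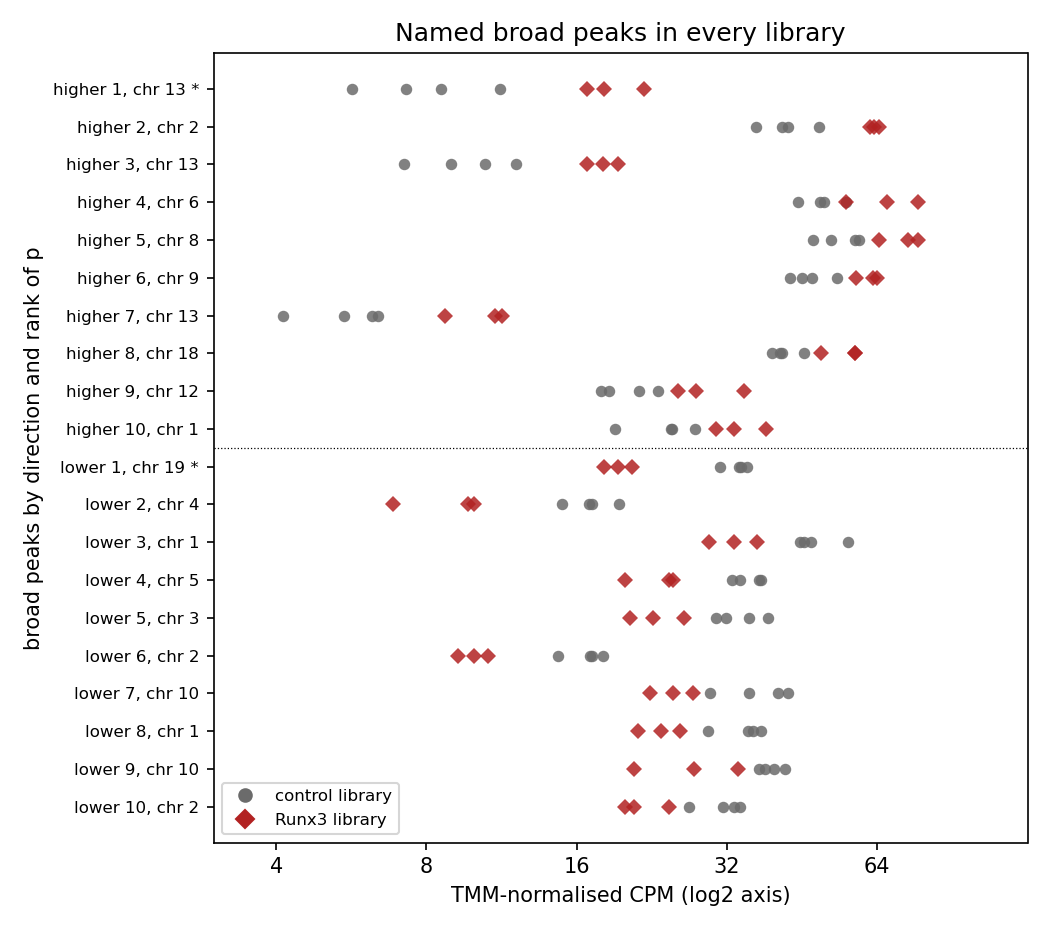
CPM per library (horizontal axis, log scale) for the 10 broad peaks per direction with the smallest p among those whose groups do not overlap (circles for control libraries, diamonds for Runx3 libraries, an asterisk for the 2 called). The 3 on chromosome 13 and the 1 on chromosome 4 lie furthest to the left, and the lowest control mean is 5.56 CPM.

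The largest fold change of any broad peak did not pass the test. It lies on chromosome 11 at 49041214 to 49042816, chosen here after its values were seen. It had 12.4, 19.1, 42.2 and 16.4 CPM in controls and 9.98, 6.32 and 9.99 CPM with Runx3. All Runx3 libraries were below all controls, but control 3 was over 2 times the next control. The log2 fold change was -1.43 ± 0.56 (SE) with an edgeR adjusted p of 0.576.

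The weakest and the strongest broad peaks are described apart, with no test of the difference. Of the 26 under 10 CPM, 4 were higher and 0 lower at an unadjusted p under 0.05, 17 had a positive fold change, and the median was 0.17. Among 7453 other tested autosomal peaks between 7.44 and 10 CPM, 4.54% were higher and 5.01% lower, with a median of -0.01. Of the 392 above 100 CPM, 0 were higher and 3 lower, with a median of -0.04. Among 80 other peaks above 100 CPM, 0 were higher and 2 lower, also with a median of -0.04. By width, both directions together, 4.75% of peaks of 1200 to 1399 bases and 3.98% of 1400 to 1599 passed an unadjusted p under 0.05. At 1600 to 1999 bases it was 4.03%, and at 2000 bases or more 1.90%. Beside these stand 8.78% of the other tested autosomal peaks, whose median level is lower, and 3.93% of those in the top band of CPM.

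Broad peaks had fewer close neighbours than other peaks. The gap to the nearest other peak had a median of 6116 bases, against 3041 bases for the other tested autosomal peaks. Within 5 kb another peak lay beside 2035 broad peaks (40.3%), against 63.98% of the others, while within 200 bases the shares were 11.5% and 12.4%. The wider surroundings were nearly as full: a median of 7 other peaks lay within 50 kb, against 8. The nearest peak had a median width of 350.5 bases and a median of 5.45 CPM, close to the 393 bases and 5.59 CPM beside other tested autosomal peaks. It was itself broad for 196 broad peaks (3.88%), against 5.26% of the others.

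Few peaks lay at an intermediate distance from broad peaks. Counted per 100 broad peaks in bins of 500 bases from their edges, there were 17.5 other peaks in the first 500 bases. There were 2.59 per bin between 2 and 3.5 kb and 8.47 per bin between 5 and 12 kb, a ratio of 3.27. Other peaks of the top band of CPM, whose median level of 53.6 CPM is close to that of broad peaks, had 7.22 and 9.63, a ratio of 1.33. The ratio rose with width, from 1.91 at 800 to 1199 bases to 2.67, 3.97 and 4.53 at 1200 to 1399, 1400 to 1599 and 1600 bases or more. Over all other tested peaks it was 1.07. The distances of the bins were chosen after the profile was seen. No source used here gives the settings of the peak caller, and their part in this gap was not tested.

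**Figure D5:**
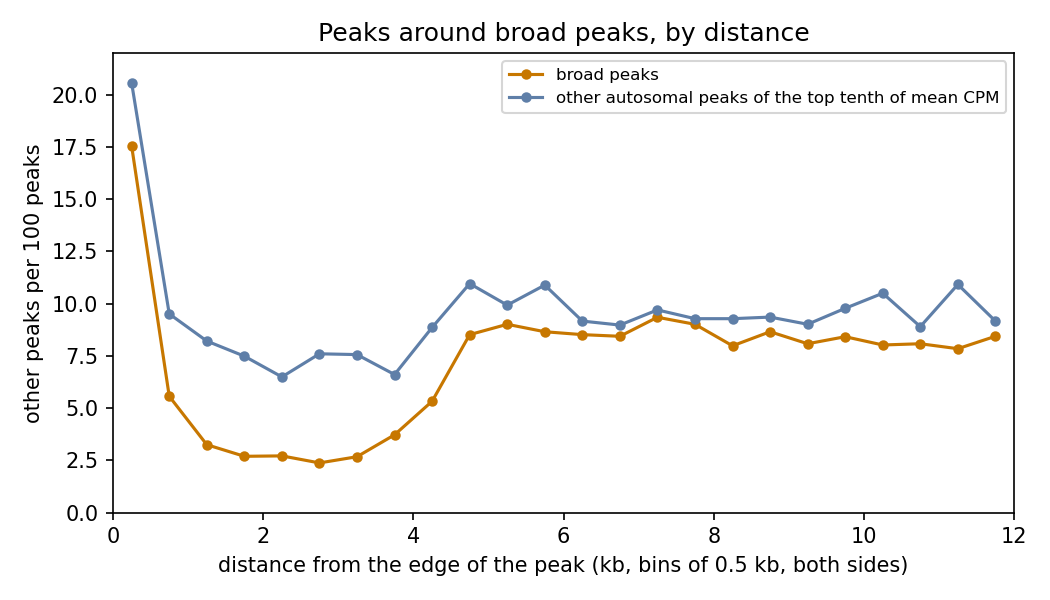
Other peaks per 100 peaks (vertical axis) by distance from the peak's edge (horizontal axis, kb, bins of 500 bases), for broad peaks and for comparison peaks. The curve of broad peaks is low between 2 and 3.5 kb, at 2.59 per bin, and returns to 8.47 per bin beyond 5 kb.

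Fold changes of broad peaks and of their neighbours were nearly unrelated. Over 1549 pairs of a broad peak and a tested nearest peak within 5 kb, Pearson's r of their log2 fold changes was 0.02, and over 22319 such pairs of other peaks it was 0.10. These are descriptions across peaks of the same 7 libraries, and the small range of changes at broad peaks limits the first. Broad peaks with a neighbour within 5 kb held 10.01% ± 0.425 of autosomal counts in controls and 9.92% ± 0.251 with Runx3. The 3013 without one held 15.6% ± 0.644 and 15.4% ± 0.375.

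Broad peaks were found on all 19 autosomes, making up from 4.36% of peaks on chromosome 13 to 6.38% on chromosome 19. Windows of 1 Mb held at most 14 of them, and 31 of 2352 windows held 10 or more. The fullest were chromosome 19 from 6000001 to 7000000 (14 of 90 peaks), chromosome 7 from 134000001 to 135000000 (14 of 104) and chromosome 4 from 155000001 to 156000000 (12 of 73). Median log2 fold changes of their broad peaks were 0.00, -0.07 and -0.03. Their widest members, of 1729, 1885 and 1544 bases, start at 6914280, 134984310 and 155366150 and had edgeR adjusted p of 0.899 or more. Control 1 had the highest summed CPM of all libraries in each of the 3 windows, with 1049, 1250 and 575 CPM.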

How the data were processed

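The deposited table gives raw read counts per peak, whole numbers that the authors did not normalise. The build is mm9 and the tools were Bowtie2, MACS2, Picard, SAMtools, FastQC and Trim Galore, per the submitters' processing notes. No source used here gives their versions or settings, how peaks were merged across libraries, or whether reads were shifted to the transposase cut, and peak width depends on these. Positions follow the table (mm9), and a start may be counted from 0 or 1.

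Counts of all 98723 peaks entered filterByExpr (minimum count 10, minimum total 15) in edgeR 4.0.16 (R 4.3.3). It kept 57504 peaks, among them all 5048 broad peaks and 56.2% of other autosomal peaks. Libraries were scaled by TMM, and Runx3 was compared with control in all 7 libraries by the robust quasi-likelihood test, with Benjamini-Hochberg adjustment over all tested peaks. CPM are TMM-scaled; log2 CPM and spreads used a prior count of 2. The SE of a fold change is its size over the square root of F and is approximate. Shares were compared by exact permutation. Counts carry no molecular identifiers, so errors cover counting and library spread only. On simulated data 8 of 127 calls were false.

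The regions named were, per direction, the 10 lowest in p with groups apart (no more than 1 in any 100 kb), the 5 widest, 5 strongest and 5 most variable, and the 3 fullest windows. Members and lists were chosen with earlier results of these data known. Alternatives were other scalings, filters, thresholds and widths, limma-voom (limma 3.58.1), DESeq2 1.42.0, library sets, depth, each library left out and a replicate block. The fit without the 57 set-defining peaks and those on the sets without control 1 were added after seeing the data. Gene names, motifs and sequences were not analysed here.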

Additional observations from a re-analysis of the deposited data

Results flagged for a closer look

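Of 56 values examined in the 4 control libraries, 14 had 1 library far from the other three, where about 2.8 would be reached by chance at 1 in 20, and in all 14 that library was control 1. The values share the same counts and are not independent. At least 1 of the 14, the CPM on chromosome 1 at 181093031 to 181094544, belongs to a peak named for its within-group spread. The chance rate does not hold for such a peak. They include the share of counts in broad peaks (27.2%), in those of 1400 to 1599 bases (7.61%), 1600 to 1999 bases (6.38%) and 2000 bases or more (1.87%), all high, and in peaks of 400 to 799 bases (27.5%), which was low.

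Control 1 also stood out in read density. Broad peaks had 2.12 times the reads per kb of other autosomal peaks and 1.72 times those of other tested peaks. Scaled to autosomal depth as CPM, its density was 36.7 per kb in broad peaks, higher than in the other controls, and 17.3 in other peaks, lower than in the other controls. Control 1 was the highest control at 54.1% of broad peaks and at 30.1% of other tested peaks. Its median log2 deviation from the mean of all 7 libraries at broad peaks was 0.115. At single peaks, control 1 had 283 CPM on chromosome 16 at 38088276 to 38090103 and 123 CPM on chromosome 1 at 181093031 to 181094544, each far above the other controls.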

How the results depend on the processing

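The count of broad peaks called higher with Runx3 was 1. It was 2 with total counts alone, with loess offsets and with an adjusted p under 0.10. It was 0 with DESeq2, limma-voom, no robust estimation and set 2 alone. It was also 0 with total count as a covariate and with thinning to the smallest total. A mean count of at least 50 and a width of at least 1500 bases gave 0 as well. The peak called higher had counts of 11 to 43 per library and is 1230 bases wide. Those last settings left it out and did not retest it. The count called lower was also 1. It was 0 with a mean count of at least 50, DESeq2, limma-voom and no robust estimation, and 3 with a width of at least 1000 bases. It was 2 with the covariate, neither of them the lower peak described above. Leaving out 1 library gave 0 to 4 higher and 0 to 5 lower, with the highest counts without control 1. With library set as a term and control 1 left out there were 5 higher and 5 lower. The single peak called may differ even where the count is the same. After thinning, in set 2 alone and with the replicate block, the peak called lower was another one.

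The median log2 fold change of broad peaks minus that of others was -0.015, and -0.0874 in set 1 alone. The difference in share of counts was -0.343 percentage points, and -1.33 in set 1 alone, but 0.457 in set 2 alone, and it ran from -0.704 to 0.1875 when 1 library was left out. The spread of broad peaks was 0.540 of that of other peaks, 0.869 by quasi-likelihood dispersion and 0.916 within bands of CPM. For the 20 regions named by p, 26 fold changes lost and 9 gained a call under an alternative and 400 did neither. All 26 losses belong to the 2 called peaks, the only ones with a call to lose. Most of the 400 come from peaks that were not called, so they do not speak to how firm the 2 calls are. No direction of a called value turned.

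The labels number the libraries but do not say that a number marks a shared animal or day. Deviations of same-numbered libraries over all tested peaks correlated at 0.117, 0.0993 and 0.0663, and each Runx3 library correlated best with its own number, a hint from the data only. Over broad peaks the same-number correlations were 0.0036, 0.0366 and 0.0244, and Runx3 1 correlated best with control 2. With the replicate block 1 broad peak was called higher and 1 lower, the lower one being the variable peak on chromosome 1 (log2 fold change -1.07), and the difference in share was -0.466 percentage points, the mean of -2.31, 1.05 and -0.134 over the same-numbered libraries.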

Other observations

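Broad peaks were also counted after joining neighbours, since a split peak counts as several. Joining peaks with gaps of up to 200 bases gave 6807 autosomal regions of 1200 bases or more, of which 1761 held no broad peak. With gaps of up to 50 bases there were 5304 and 256. The set of broad regions thus depends on how peaks were separated.

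On chromosome 13 from 12000001 to 15000000, a stretch chosen after its values were seen, 9 of 73 peaks were broad. Of these, 3 are the weak ones named above with log2 fold changes of 0.86 to 1.15. The other 6 had log2 fold changes of -0.27 to 0.41, and none of them passed the threshold. Over all other tested autosomal peaks, 25195 of 51256 had a positive fold change, with a median of -0.01. Among the 34 other tested peaks of the stretch, 25 had a positive fold change, with a median of 0.13. By library set, 15 of 31 tested were positive in set 1 (median log2 fold change -0.015) and 26 of 34 in set 2 (median 0.19). The medians of the 9 broad peaks were -0.04 and 0.16.

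Several broad peaks were called only under an alternative. Thinning called the peak on chromosome 11 at 49041214 to 49042816 (edgeR adjusted p = 0.0338, log2 fold change -1.45 against -1.43 before). Set 2 alone called one on chromosome 2 at 176193906 to 176195182 (log2 fold change -0.79), and leaving out control 1 called one on chromosome 2 at 178232211 to 178233533 (log2 fold change -0.67). These were chosen after their values were seen.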
